A study of Mus musculus with 16 samples.

Results

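Pre-B cells carrying the BCR-ABL1 fusion kinase were compared with and without SHP2, the tyrosine phosphatase encoded by Ptpn11. The 4 SHP2-null libraries, labelled BCR-ABL WT (+/+)/SHP2 NULL (-/-), were set against the 4 SHP2 wild-type libraries, labelled BCR-ABL WT (+/+)/SHP2 WT (+/+). Both groups therefore share BCR-ABL1, and all are mouse polyA RNA. A gene entered when it reached 1 FPKM (fragments scaled to transcript length and library size) in at least 4 of these 8 libraries, which 10002 of the 23279 symbols in the table did. The series holds 16 libraries, and the 8 others, labelled BCR-ABL NULL (-/-) with SHP2 NULL (-/-) or SHP2 WT (+/+), served here to estimate the spread and to show the same genes in cells without BCR-ABL1. The sources used here do not give the Ptpn11 allele, any Cre driver, the strain, the age of the mice or the way BCR-ABL1 was introduced. Nor is it stated if the libraries of a group derive from separate mice or cultures. The p-values therefore reflect the spread among these libraries, and that spread may be technical.

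SHP2 binds phosphotyrosines on receptors and adaptors through its SH2 domains, and it is known for relaying their signals to RAS and the kinase ERK. BCR-ABL1 recruits the adaptors GRB2 and GAB2, and GAB2 in turn docks SHP2 and PI3-kinase. Pre-B cells are B-lineage precursors that depend on the pre-B cell receptor and on interleukin 7, and in them BCR-ABL1 is known as a driver of acute lymphoblastic leukaemia.

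The 8 libraries were alike in breadth, with 9864 to 10011 genes at 1 FPKM or more. Their FPKM columns summed to 348923 to 443702. FPKM values carry no counts, so the absolute depth was unknown, and the relative depth was estimated to differ by a factor of up to 1.43. All 14 pre-B markers were measured, and their summed level was 3096 to 3436 FPKM in wild-type and 3071 to 3645 FPKM in null libraries. Vpreb1 ran from 361 to 587 FPKM and Pax5 from 42.7 to 93.7 FPKM over the 8 libraries. The summed 15 myeloid markers in the table read 4.91 to 28.1 FPKM in wild-type and 3.86 to 13.98 FPKM in null libraries, and the 14 T and NK markers read 2.92 to 3.64 and 3.23 to 3.76 FPKM. Of the libraries without BCR-ABL1, which lend the test their spread, null replicate 2 had the highest myeloid sum (456 FPKM). A fit without it, chosen after seeing the data, gave 28 changed genes, of which 25 were shared with the fit that holds it. Tgfbr2 and Plod3 were among those lost (limma adjusted p = 0.0614 and 0.0570). The mast cell genes Cma1, Tpsab1 and Tpsb2 and the stromal genes Col3a1 and Dcn were listed at 0 in all 8. The noncoding RNA Rpph1, which is not polyadenylated, stood at 1193 FPKM in null replicate 0 and at 16292 FPKM in wild-type replicate 2, the extremes of the 8. Replication-dependent histone mRNAs, which also lack a polyA tail, were lowest and highest in the same pair of libraries. In a bulk library, fewer cells of a type and less RNA per cell cannot be told apart.

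The targeted gene was read first. In replicates 0, 1, 2 and 3, Ptpn11 stood at 17.2, 17.1, 15.7 and 18.0 FPKM in wild-type libraries and at 3.56, 3.56, 6.07 and 4.88 FPKM in null libraries. Every null library lay below every wild-type library, so the values go with the labels. The difference in means was -12.5 FPKM (exact two-sided permutation test, p = 0.0286, the smallest that 70 splits allow). The deleted exons are not named by the labels, and reads left in null libraries say nothing about protein. Abl1 averaged 15.3 ± 2.21 FPKM in wild-type and 14.8 ± 2.34 FPKM in null libraries, and Bcr 6.88 ± 1.14 and 6.24 ± 0.855 FPKM (SD, n = 4). Both overlapped between groups and neither passed the test (limma adjusted p = 1.00 each). Gene-level values do not separate the fusion transcript from the mouse genes.

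Loss of SHP2 in BCR-ABL1 cells changed few transcripts, 5 of them by 1 or more on the log2(FPKM + 1) scale. Values were compared as log2(FPKM + 1) with limma, a linear model that shares information on spread across genes, and an adjusted p below 0.05 (Benjamini-Hochberg over the 10002 genes) counted as a change. By that rule 28 genes changed (0.28% of those tested), 16 higher (0.16%) and 12 lower (0.12%) in null cells. The 4 libraries of one group lay wholly above the 4 of the other for all 28, against 307 of all genes tested (3.07%). The 28 were picked by a test on these same values, so this separation lends none of them further support. For Hspb8, Mid1, Ift81, Ccr2 and Gm3448 only 1 group reached 1 FPKM, so the entry rule alone already fixed their separation. At an unadjusted p below 0.05 there were 367 genes (3.67%), where 500.1 would fall by the test's own rate. With the replicate number as a block there were 841, so this count depends on the fit. Over all genes tested 42.6% had a higher mean in null cells, with a median log2 change of -0.02. The count was 18 without wild-type replicate 2. With a pseudocount of 0.1, which shrinks low genes less, 11 of the 28 differed by 1 or more on the log2 scale.

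**Figure D1:**
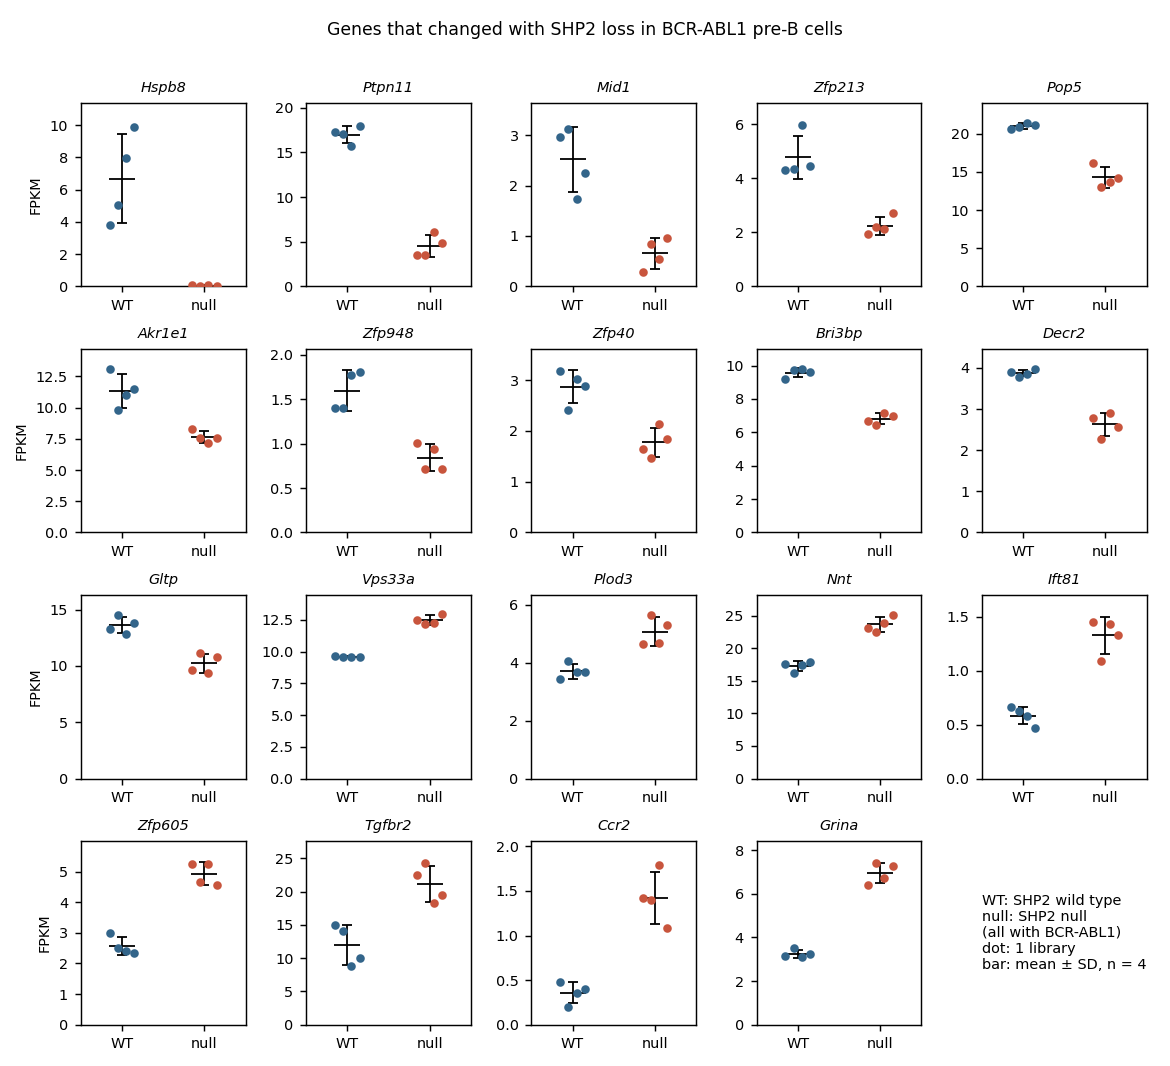
FPKM (y axis, from 0) of 19 genes that changed with SHP2 loss in cells with BCR-ABL1, 1 panel per gene, with wild-type libraries in blue and null libraries in red; each dot is 1 library and the bars give the mean ± SD of 4. The dots of the 2 groups do not overlap in any panel, and Hspb8 reads 3.81 to 9.86 FPKM in wild-type and under 0.08 FPKM in null libraries.

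Hspb8 had the strongest fall, and Grina was among the genes that rose. Hspb8, a small heat shock protein that works with BAG3 to clear misfolded proteins, read 3.81, 5.04, 7.96 and 9.86 FPKM in wild-type replicates 0 to 3. In the null replicates it read 0.0769, 0.0293, 0.0700 and 0.0114 FPKM, close to 0 in each. Its log2 change was -2.80 ± 0.27 (SE, limma adjusted p = 5.49e-05). The wild-type libraries differed widely among themselves, and the highest null value was still far under the lowest of them. Of 6 measured small heat shock proteins and HSPB8 partners, Hspb8 alone passed (1 lower). The others included Bag1 with a log2 change of -0.14 ± 0.09, Stub1 with -0.12 ± 0.10 and Hspb6 with 0.15 ± 0.14. Grina, a membrane protein of the TMBIM family that restrains cell death, read 3.15, 3.503, 3.11 and 3.23 FPKM in wild-type libraries, against 6.41, 7.42, 6.73 and 7.28 FPKM in null replicates 0 to 3. The spread within each group was narrow beside the gap, and the log2 change was 0.90 ± 0.14 (limma adjusted p = 0.00881). Of 5 measured TMBIM genes Grina alone passed, with Tmbim1 at -0.13 ± 0.15 and Ghitm at -0.14 ± 0.11.

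Mid1 and Pop5, with known roles in protein and RNA turnover, also fell. Mid1 encodes a microtubule-bound ubiquitin ligase and read 2.97, 3.13, 1.73 and 2.25 FPKM in wild-type libraries, against 0.276, 0.835, 0.533 and 0.967 FPKM in null replicates 0 to 3. It fell by 1.09 on the log2 scale (SE 0.17, limma adjusted p = 0.00808). Pop5, a protein subunit of the RNA-cleaving enzymes RNase P and RNase MRP, was nearly constant among wild-type libraries at 20.6, 20.9, 21.5 and 21.1 FPKM. The null libraries lay lower at 16.2, 13.0, 13.7 and 14.2 FPKM, a log2 change of -0.53 ± 0.08 (limma adjusted p = 0.00600). All 10 measured protein subunits of these enzymes had a negative change, with a median log2 change of -0.20 against -0.02 for all genes tested. Pop5 was the 1 that passed. Against 3.67% of all genes tested, 4 of the 10 had an unadjusted p below 0.05. Among them Pop1 read 12.6 to 14.5 FPKM in wild-type and 8.70 to 12.5 FPKM in null libraries.

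Cell-surface receptors were among the genes that rose. Tgfbr2, the ligand-binding TGF-beta receptor, read 15, 14, 8.82 and 10.04 FPKM in wild-type libraries, against 22.4, 24.3, 18.3 and 19.4 FPKM in null replicates 0 to 3. Replicates 2 and 3 were lower than 0 and 1 in both groups, and each null library stood above its same-numbered wild-type library by a similar amount. The log2 change was 0.79 ± 0.16 (limma adjusted p = 0.0461, or 0.000144 with the replicate number as a block). Its call was lost without null replicate 0, 1, 2 or 3 or wild-type replicate 2 or 3 (limma adjusted p = 0.0613 to 0.197). It was also lost with a pseudocount of 0.1 (0.0509), with no filter (0.105), with a mean of at least 5 FPKM (0.0659), with median-ratio scaling (0.0558) and in the 8 libraries alone (0.165). Of 13 measured TGF-beta receptors and SMADs, Tgfbr2 alone passed, 11 had a positive change, and the median was 0.06. Acvr1b, an activin receptor, read 1.43 to 1.62 and 1.90, 1.92, 1.75 and 1.82 FPKM and did not pass (limma adjusted p = 0.841).

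Ccr2, a chemokine receptor best known from monocytes, was low in all 8 libraries. It read 0.483, 0.203, 0.351 and 0.402 FPKM in wild-type libraries, against 1.42, 1.39, 1.79 and 1.09 FPKM in null replicates 0 to 3 (log2 change 0.83 ± 0.14, limma adjusted p = 0.0157). The summed myeloid markers overlapped between the groups and had a lower upper end in null libraries, as given above. The call of Ccr2 was lost without null replicate 0, 1 or 2 or wild-type replicate 1, 2 or 3 (limma adjusted p = 0.0515 to 0.0680). Vsir, which the table lists as 4632428N05Rik, encodes the inhibitory receptor VISTA. It read 1.71 to 2.205 FPKM in wild-type and 3.04 to 3.74 FPKM in null libraries (log2 change 0.53 ± 0.07, limma adjusted p = 0.00151). It falls outside the rule for named genes and was chosen after its values were seen.

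Of 4 further changed genes that encode enzymes or a lipid carrier, Nnt rose and 3 fell. Nnt, the mitochondrial transhydrogenase that makes NADPH, read 17.5, 16.2, 17.4 and 17.9 FPKM in wild-type libraries, against 23.1, 22.5, 23.9 and 25.2 FPKM in null replicates 0 to 3. It rose by 0.43 ± 0.07 (limma adjusted p = 0.00749) and was the 1 of 14 measured genes of mitochondrial NADPH and antioxidant defence that passed. The median of those 14 was -0.02 (-0.09 without wild-type replicate 0 and 0.02 without null replicate 1), and the superoxide dismutase gene Sod2 had a log2 change of -0.09 ± 0.06. Akr1e1, an aldo-keto reductase, fell from 13.1, 9.83, 11.02 and 11.5 FPKM to 8.25, 7.59, 7.15 and 7.53 FPKM (log2 change -0.51 ± 0.09, limma adjusted p = 0.0147). Wild-type replicate 0 was the highest of the 8, and the null libraries lay close together. Decr2, a peroxisomal dienoyl-CoA reductase, read 3.79 to 3.98 and 2.27 to 2.90 FPKM (log2 change -0.43 ± 0.07, limma adjusted p = 0.0172). Gltp, which carries glycolipids between membranes, read 12.8 to 14.6 and 9.34 to 11.1 FPKM (log2 change -0.38 ± 0.07, limma adjusted p = 0.0268). These 3 lower genes did not hold with every library left out. The call of Akr1e1 was lost without null replicate 1, 2 or 3 or wild-type replicate 0 or 3 (0.0508 to 0.0613), that of Decr2 without null replicate 1 or 3 or wild-type replicate 0, 2 or 3 (0.0622 to 0.0763), and that of Gltp without null replicate 0 or 2 or any 1 wild-type library (0.0521 to 0.123). In the 8 libraries alone the calls of Akr1e1 (0.0770), Decr2 (0.0770) and Gltp (0.162) were lost, and that of Gltp also with median-ratio scaling (0.0709).

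The other changed genes outside the zinc finger family were Vps33a, Plod3, Ift81 and Bri3bp. Vps33a, a subunit of the tethering complexes that fuse endosomes and lysosomes, had the tightest wild-type values of the 19 genes, at 9.68, 9.61, 9.55 and 9.61 FPKM. In null libraries it read 12.5, 12.1, 12.2 and 13.0 FPKM (log2 change 0.34 ± 0.05, limma adjusted p = 0.00269). The call was lost in a fit on the 8 libraries alone (limma adjusted p = 0.0730). Plod3, a collagen-modifying hydroxylase and glycosyltransferase, read 3.44 to 4.07 and 4.64 to 5.66 FPKM (log2 change 0.36 ± 0.07, limma adjusted p = 0.0461). Ift81, a tubulin-binding part of the ciliary transport machinery, read 0.472 to 0.665 and 1.09 to 1.45 FPKM (log2 change 0.55 ± 0.09, limma adjusted p = 0.00914). Bri3bp, which encodes a binding partner of BRI3, read 9.19 to 9.77 and 6.45 to 7.18 FPKM (log2 change -0.44 ± 0.06, limma adjusted p = 0.00221). The ranges did not overlap for any of the 3. For Ift81 the entry rule fixed this, since no wild-type library reached 1 FPKM. Plod3 was the least secure, since its call was lost without any 1 null library or wild-type replicate 0, 2 or 3 (0.0533 to 0.180). It was also lost with no filter (0.0718), with median-ratio scaling (0.0509) and in the 8 libraries alone (0.234).

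Zinc finger genes, most of which encode DNA-binding repressors, also went in both directions. Zfp605 rose from 2.98, 2.51, 2.39 and 2.34 FPKM to 5.24, 4.65, 5.25 and 4.57 FPKM in replicates 0 to 3 (log2 change 0.74 ± 0.07, limma adjusted p = 5.49e-05). Zfp213 fell from 4.31, 4.34, 5.97 and 4.46 FPKM to 1.92, 2.2, 2.14 and 2.7 FPKM (log2 change -0.83 ± 0.10, limma adjusted p = 0.000526). Neither overlapped between groups, and wild-type replicate 2 stood above the rest for Zfp213. Zfp40 read 2.42 to 3.19 and 1.46 to 2.14 FPKM, and Zfp948 1.40 to 1.81 and 0.713 to 1.00 FPKM (limma adjusted p = 0.0279 and 0.0157). These smaller falls were sensitive to single libraries. Zfp40 was lost without null replicate 0, 1 or 3 or wild-type replicate 0, 2 or 3 (0.0712 to 0.128), and Zfp948 without null replicate 1 or 3 or wild-type replicate 2 or 3 (0.0741 to 0.0844). In the 8 libraries alone both were lost (0.162 and 0.108), and Zfp40 was also lost with no filter (0.0558).

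The remaining 8 changed genes have predicted or provisional symbols and are given for completeness, outside the rule for named genes and after their values were seen. Gm10653, annotated as a transcribed pseudogene, had the largest rise of all, from 1.25, 1.94, 2.15 and 1.90 FPKM to 8.99, 7.95, 17.7 and 17.7 FPKM (log2 change 2.25 ± 0.25, limma adjusted p = 0.000287). Its null libraries were lower in replicates 0 and 1 than in replicates 2 and 3. 9030025P20Rik rose from 3.23 to 3.90 FPKM to 9.18 to 11.3 FPKM, and its neighbour Gm3435 from 2.71 to 3.09 FPKM to 5.57 to 6.58 FPKM. Both levels are uncertain, because 63.3% of the 31-base stretches of Gm3435 also occur in 9030025P20Rik and reads could be split between them. Gm3448, 2210404J11Rik (Ermard), 4933404O12Rik and 1500011B03Rik rose by 0.50 to 0.86, and A430033K04Rik fell by 0.56 on the log2 scale.

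The changed genes were not spread evenly over the genome (positions from GENCODE M21, GRCm38). Chromosome 5, which carries Ptpn11 (chr5:121130533-121191397), held 12 of the 28, although it carries 6.32% of the tested genes with a position. That is 1.91% of its 628 tested genes, against 0.28% overall. The 11 others on that chromosome lay 1.42 to 17.5 Mb from Ptpn11, nearest Ift81 and farthest A430033K04Rik. Hspb8 (chr5:116408491-116422864) and Pop5 (chr5:115235836-115245351) lay 4.72 and 5.90 Mb away. Of the 12, 6 were higher and 6 lower. Chromosome 17 held 8 (1.47% of 546 tested), all between positions 14978468 and 26090337, among them Zfp213, Zfp40, Zfp948 and Decr2. Chromosome 9 held Tgfbr2 (chr9:116084293-116175360), Ccr2 (chr9:124101950-124113557) and Gm10653. Chromosome 13 held Akr1e1 and Nnt, and Grina (chr15:76246764-76249904), Mid1 on X and Vsir on chromosome 10 were alone on theirs. The labels do not state the strain of origin of either genotype, and its part in these calls was not tested.

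The same genes were read in the 8 libraries without BCR-ABL1, which share no library with this comparison but share its estimate of spread. All 28 moved in the same direction there, and 23 also passed, where 122 of the tested genes passed in all (1.22%). The 5 that passed with BCR-ABL1 and not without it were Akr1e1, Zfp948, Gltp, Ift81 and Ccr2, with log2 changes without it of -0.28, -0.19, -0.16, 0.23 and 0.46. Passing in 1 background alone does not show a difference, and the difference of the 2 effects passed for 0 of the 10002 genes in limma (561 at an unadjusted p below 0.05, 5.61%). Among the 28 its smallest adjusted p was 0.857. Hspb8 read 1.79, 3.06, 5.17 and 6.63 FPKM in wild-type libraries, against 0.0319, 0.0225, 0.0965 and 0.162 FPKM in null libraries without BCR-ABL1. Tgfbr2 read 8.34 to 12.1 and 17.0 to 22.1 FPKM there, close to its ranges with BCR-ABL1. Ccr2 reached at most 1.26 FPKM in null cells without BCR-ABL1, and its lowest null library overlapped the wild-type range.

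**Figure D2:**
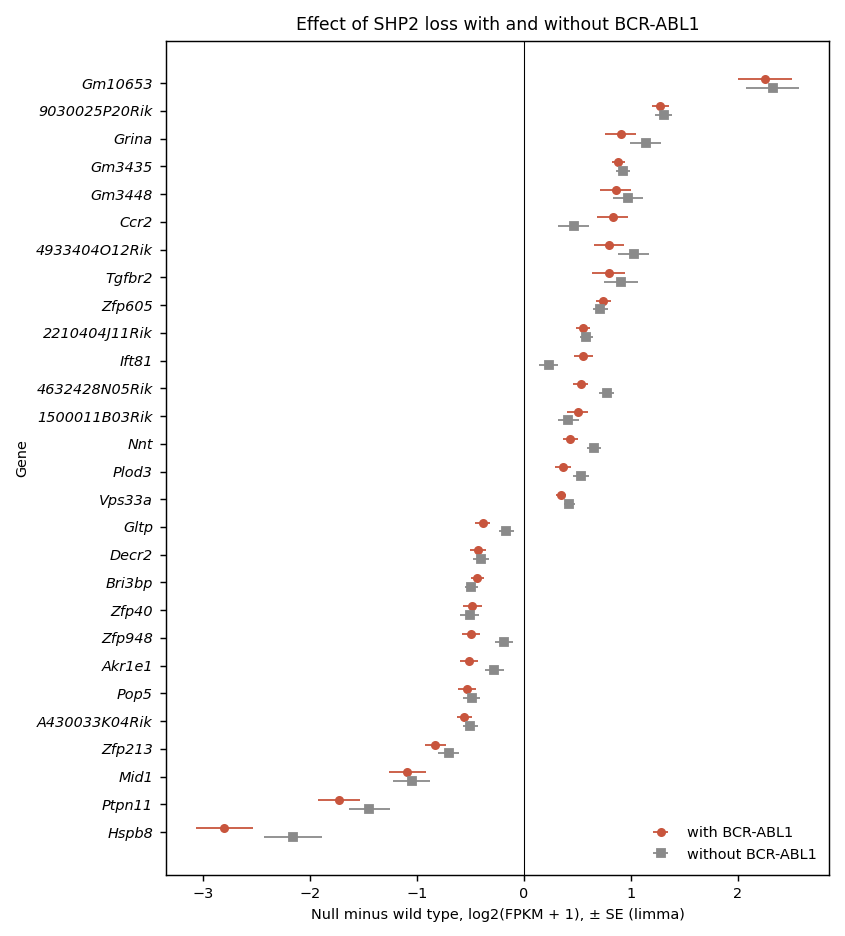
Null minus wild-type change of the 28 genes on the log2(FPKM + 1) scale (x axis), with BCR-ABL1 (red circles) and without it (grey squares); bars are ± 1 SE from limma and genes are ordered by the change with BCR-ABL1. Each pair lies on the same side of 0, from -2.80 and -2.16 for Hspb8 to 2.25 and 2.32 for Gm10653.

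Entering the replicate number as a block raised the count to 45 genes (0.45%), 25 higher and 20 lower, and all 28 stayed. Of the 17 added, the largest difference was in Uchl1, a neuronal deubiquitinase also expressed in germinal-centre B cells. It read 18.8, 23.2, 22.8 and 21.6 FPKM in wild-type libraries, against 3.16, 4.50, 3.98 and 17.2 FPKM in null replicates 0 to 3 (limma adjusted p = 0.0307 with the block and 0.179 without). Null replicate 3 stood close to the wild-type libraries and the other 3 far below. Atp10d, of the phospholipid flippase family, read 1.56 to 2.12 and 2.72 to 5.26 FPKM, and Hyi 1.01 to 1.15 and 2.13 to 4.40 FPKM. Both are annotated as polymorphic pseudogenes, so these levels do not show that a working protein is made. Acad10, an acyl-CoA dehydrogenase, read 1.37 to 1.94 and 2.40 to 3.05 FPKM. Hagh, which detoxifies methylglyoxal products, read 3.95 to 4.93 and 6.24 to 6.80 FPKM. Lower with the block were Coro1c, an actin regulator (20.8 to 23.04 and 14.8 to 18.3 FPKM), Tmed5 of the early secretory pathway (18.3 to 26.3 and 12.2 to 17.1 FPKM), the lysosomal iduronidase gene Idua (2.59 to 3.31 and 1.58 to 2.16 FPKM) and Nme6 (12.8 to 15.7 and 8.68 to 11.8 FPKM). With the block, 21 of the 45 lay on chromosome 5 and 12 on chromosome 17.

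Some genes near 0 in 1 group did not enter because fewer than 4 libraries reached 1 FPKM. Cacna1h, a T-type calcium channel, read 0.989, 1.25, 0.907 and 1.17 FPKM in wild-type libraries. In null replicates 0 to 2 it was listed at 0, and in replicate 3 at 0.00235 FPKM. Dcpp2 had a listed value of 0 in each wild-type library and read 0.776, 1.09, 1.76 and 1.62 FPKM in null replicates 0 to 3. Its family members are near-identical, so its level is uncertain. Cacna1h and Dcpp2 passed in a fit without the rule (limma adjusted p = 3.83e-05 and 0.00731), in which 35 genes passed.

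Direct partners of SHP2 and the RAS-ERK cascade changed little. Of 24 measured adaptors, RAS regulators and kinases 0 passed in limma in either direction, 0 had an unadjusted p below 0.05, and the median log2 change was 0.02 against -0.02 for all genes tested (-0.01 without wild-type replicate 2 or null replicate 0). The docking adaptor Gab2 read 4.13, 4.66, 3.95 and 4.43 FPKM in wild-type libraries, against 5.14, 4.75, 5.26 and 4.52 FPKM in null replicates 0 to 3, and the groups overlapped (log2 change 0.16 ± 0.12). Gab3 had 0.12 ± 0.08, the scaffold Ksr1 0.15 ± 0.10 and the RAS inhibitor Rasa2 -0.13 ± 0.10. Of 15 measured phosphatases other than SHP2, 0 passed in limma or had an unadjusted p below 0.05, and 6 had a positive change. Ptpn6, which encodes the related phosphatase SHP1, read 39.4, 31.8, 26.8 and 27.5 FPKM and 26.8, 29.5, 26.1 and 27.4 FPKM. Apart from wild-type replicate 0 its values lay in 1 range.

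ERK feedback genes, which report ERK activity by being induced by it, were mostly low in BCR-ABL1 cells. Only 6 of 19 reached the 1 FPKM rule, 0 of the 6 passed in limma or had an unadjusted p below 0.05, and 1 had a positive change. Spry1 read 1.199 to 1.53 and 1.0445 to 1.304 FPKM, Dusp5 9.67 to 15.3 and 8.74 to 17.1 FPKM, and the immediate-early gene Ier2 2.13 to 6.38 and 1.75 to 5.59 FPKM. All 3 pairs overlapped. Dusp6, the ERK phosphatase, fell short of the rule, with 0.710, 0.888, 0.786 and 1.11 FPKM in wild-type libraries, against 0.255, 0.446, 0.421 and 0.501 FPKM in null replicates 0 to 3. The groups did not overlap, and in the fit without the rule, whose spread includes the libraries without BCR-ABL1, its log2 change was -0.41 ± 0.26 (limma adjusted p = 1.00). Without BCR-ABL1 it read 9.03 to 14.8 and 1.21 to 5.12 FPKM.

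The other signalling lists gave 0 changed genes in limma, and 0 of their members had an unadjusted p below 0.05. Of 8 measured SRC family kinases and regulators 7 had a positive change, with a median of 0.08, and Fyn had a log2 change of 0.09 ± 0.09. The 13 genes of the interleukin 7 receptor, JAK and STAT had a median of 0.05 (0.03 without null replicate 2 and 0.09 without null replicate 0), with Stat2 at 0.21 ± 0.13 and Stat6 at 0.09 ± 0.07. Among 11 measured STAT5 targets the median was 0.04 (0.02 without null replicate 2 and 0.10 without null replicate 3). Il2ra read 2.78, 3.84, 4.50 and 5.69 FPKM in wild-type libraries, against 5.601, 5.55, 6.84 and 3.86 FPKM in null replicates 0 to 3. Null replicates 0, 1 and 3 lay inside the wild-type range. Of 19 genes of PI3K, AKT and mTOR signalling 10 had a positive change, with a median of 0.00 that turned sign with single libraries left out.

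The B-lineage lists had 0 changed genes in limma and 0 with an unadjusted p below 0.05. Of 14 measured genes of the pre-B cell receptor and its adaptors 11 had a positive change (median 0.06, 0.00 without wild-type replicate 2 and 0.12 with quantile normalization), with the surrogate light chain gene Vpreb1 at 361, 421, 554 and 526 FPKM and 446, 433, 568 and 587 FPKM in wild-type and null replicates 0 to 3. Replicates 2 and 3 were the higher ones in both groups. Blnk, Btk and Plcg2 had log2 changes of 0.05 ± 0.09, 0.09 ± 0.12 and -0.14 ± 0.10. Of 17 B-lineage transcription factors 11 were positive (median 0.05, and -0.04 without wild-type replicate 2), and of 12 V(D)J recombination genes 5 (median -0.01, and 0.02 without wild-type replicate 0).

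Genes of growth arrest lay mostly higher. Of 23 measured cell cycle inhibitors and FOXO targets 21 had a positive change, with a median of 0.12 (0.08 without wild-type replicate 2), 0 passed in limma and 5 had an unadjusted p below 0.05. Over all genes tested 42.6% had a positive change and 3.67% had an unadjusted p below 0.05. Cdkn2b, an inhibitor of CDK4 and CDK6, read 1.08, 1.57, 1.48 and 1.18 FPKM in wild-type libraries, against 2.11, 2.04, 1.84 and 2.05 FPKM in null replicates 0 to 3. Its groups did not overlap (limma adjusted p = 0.430). Txnip, which restrains glucose uptake, read 26.3, 22.8, 27.8 and 23.2 FPKM and 29.5, 29.9, 48.9 and 36.1 FPKM (limma adjusted p = 0.865). Null replicate 2 was the highest here, as it was for the glycolysis genes. Ccng2 read 25.5 to 35.5 and 33.6 to 43.1 FPKM, and Cdkn1b, which encodes p27, 11.9 to 13.2 and 12.5 to 14.7 FPKM.

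Growth and replication genes lay mostly lower, by small amounts. Over all genes tested 42.6% had a positive change and 3.67% had an unadjusted p below 0.05. Of 40 ribosome biogenesis and MYC target genes 38 had a negative change (median -0.16), 0 passed and 7 had an unadjusted p below 0.05. The nucleolar methyltransferase gene Nop2 read 38.6, 40.8, 43.4 and 39.8 FPKM in wild-type libraries, against 32.4, 33.2, 33.6 and 37.2 FPKM in null replicates 0 to 3, with no overlap (log2 change -0.25 ± 0.08, limma adjusted p = 0.863). Of 33 DNA replication and E2F targets 32 had a negative change (median -0.12, and -0.06 with quantile normalization), 0 passed and 4 had an unadjusted p below 0.05. The origin recognition gene Orc1 read 8.80 to 10.2 and 6.97 to 8.74 FPKM, and the replicative helicase gene Mcm7 163 to 180 and 146 to 155 FPKM. Both sets of ranges were apart, though by little. Mcm7 (chr5:138164583-138172422) lies within the span of the changed genes on chromosome 5, which carries Ptpn11. The part of that position was not tested. All 25 respiratory chain subunits (median -0.12) and all 11 heat shock chaperones (median -0.17) had a negative change. Leaving out null replicate 1 moved the respiratory chain median to -0.05, leaving out wild-type replicate 2 moved it to -0.07, and quantile normalization gave -0.04, and the chaperone median was -0.11 without wild-type replicate 0. Of these genes 0 passed in limma, and 1 and 2 had an unadjusted p below 0.05. Hspd1, the mitochondrial chaperonin, read 226 to 272 and 178 to 221 FPKM, and Cox6a1, a subunit of cytochrome c oxidase, 154 to 201 and 127 to 172 FPKM. Cox6a1 (chr5:115345642-115348981) lies within the same span of chromosome 5 as Mcm7.

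Mitotic genes stayed nearer the median of all genes. Of 26 measured, 22 had a negative change with a median of -0.03, which turned to 0.03 with quantile normalization, and 0 passed in limma or had an unadjusted p below 0.05. A positive change was seen for 42.6% of all genes tested. The 13 cyclins, CDKs and RB family genes had a median of -0.04, or 0.01 with that normalization. Myc had a log2 change of -0.16 ± 0.19, its partner Max -0.10 ± 0.06 and the MYC antagonists Mxi1 0.28 ± 0.07 and Mxd4 0.13 ± 0.16. Mxi1 read 2.78, 2.75, 2.73 and 2.49 FPKM in wild-type libraries, against 3.42, 3.29, 3.90 and 3.36 FPKM in null replicates 0 to 3, without overlap (limma adjusted p = 0.216). Replication-dependent histones had 17 of 18 negative changes, but their library medians ran from -1.49 in null replicate 0 to 1.27 in wild-type replicate 2, the libraries with the lowest and highest Rpph1. The histone median was -0.24, and 0.12 without null replicate 0. The part of polyA selection in this was not tested.

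**Figure D3:**
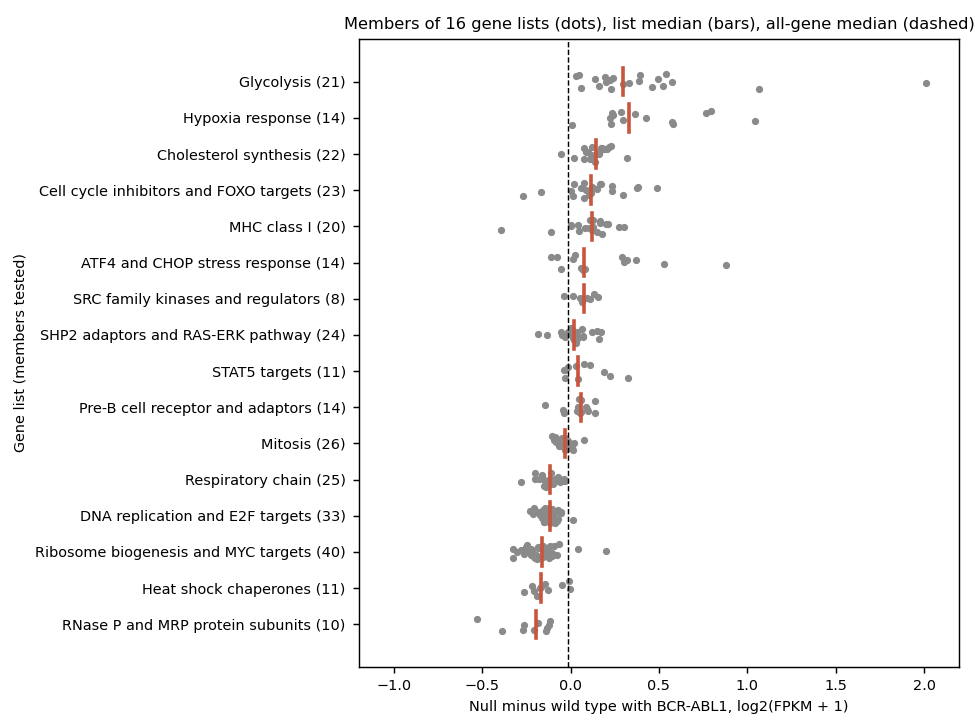
Null minus wild-type change with BCR-ABL1 (x axis, log2(FPKM + 1)) of the members of 16 gene lists; each dot is 1 gene, red bars are list medians and the dashed line is the median of all 10002 genes, -0.02. Glycolysis and hypoxia members lie right of the line, with Slc16a3 at 2.01, while RNase P and MRP, heat shock and ribosome biogenesis members lie mostly left of it.

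Among lists with at least 2 measured genes, glycolysis and the response to low oxygen had the highest medians. All 21 glycolysis genes had a positive change (median 0.30), and all 14 measured hypoxia response genes did (median 0.33), with Slc2a1 in both lists. None of them passed in limma, and 2 and 3 had an unadjusted p below 0.05. The shares over all genes tested were 42.6% with a positive change and 3.67% with an unadjusted p below 0.05. Slc16a3, the lactate exporter, read 0.332, 0.317, 6.59 and 0.418 FPKM in wild-type libraries, against 3.90, 5.01, 13.7 and 10.4 FPKM in null replicates 0 to 3 (log2 change 2.01 ± 0.66, limma adjusted p = 0.823). Wild-type replicate 2 stood inside the null range, and the other 3 wild-type libraries lay far below every null library. Bnip3, a mitophagy receptor, read 23.5, 17.8, 66.6 and 29.2 FPKM and 43.5, 36.8, 127 and 78.1 FPKM (log2 change 1.05 ± 0.50). Ankrd37 read 5.56, 3.83, 6.56 and 4.29 FPKM and 9.48, 7.40, 11.9 and 9.02 FPKM, with no overlap (log2 change 0.79 ± 0.23, limma adjusted p = 0.544). Replicate 2 was the highest library of its group for each of these 3. The glucose importer gene Slc2a1 read 4.996 to 10.8 and 6.96 to 14.02 FPKM, the aldolase gene Aldoc 1.49 to 6.08 and 3.99 to 12.9 FPKM, and the hexokinase gene Hk2 7.47 to 9.37 and 8.53 to 12.6 FPKM. All 3 overlapped. With the number as a block in the 8 libraries alone, 3 glycolysis and 4 hypoxia genes passed, among them Slc16a3 (0.0219), Bnip3 (0.00361) and Ankrd37 (0.00220). In that fit 76 of the 10002 genes tested passed. Replicates 2 and 3 of the groups correlated better crossed than by number, so this pairing is uncertain.

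**Figure D4:**
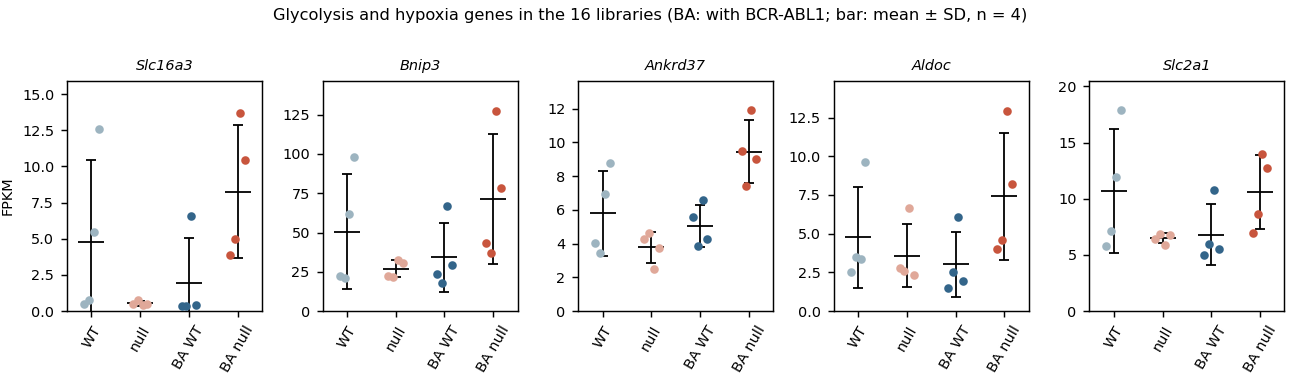
FPKM (y axis, from 0) of 5 glycolysis and hypoxia genes in all 16 libraries, by SHP2 status without BCR-ABL1 (pale) and with it (BA, dark); dots are libraries and bars the mean ± SD of 4, ended at 0. With BCR-ABL1 the null libraries reach higher than the wild type, with Slc16a3 at 3.90 to 13.7 FPKM, while without it the wild-type libraries reach higher, up to 12.6 FPKM against at most 0.769 FPKM in null.

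These genes ran the other way in cells without BCR-ABL1. There the glycolysis median was -0.45 and the hypoxia median -0.37, and Slc16a3 read 0.457, 0.750, 5.47 and 12.6 FPKM in wild-type libraries, against 0.465, 0.769, 0.417 and 0.458 FPKM in null replicates 0 to 3. The difference between backgrounds was 3.35 ± 0.94 for Slc16a3, 1.25 ± 0.33 for Ankrd37 and 1.66 ± 0.71 for Bnip3 on the log2 scale, and 0 of them passed (limma adjusted p = 0.798, 0.798 and 0.857). At an unadjusted p below 0.05 the difference held for 10 of 21 glycolysis and 9 of 14 hypoxia genes, against 561 of all 10002 genes tested (5.61%). The lists were chosen with earlier results of these data known, so these counts are not a test. For Slc16a3 the high libraries with BCR-ABL1 were all 4 null libraries and wild-type replicate 2, and those without it were wild-type replicates 2 and 3. The glycolysis median with BCR-ABL1 was 0.16 without null replicate 2, 0.49 without null replicate 0 and 0.51 without wild-type replicate 2. The labels name no culture density, oxygen level or harvest time.

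Hypoxia-inducible factors bind DNA at a short core, ACGTG, and promoters of 3 of these genes are printed to show where that core lies in them. It was searched on either strand (as ACGTG or CACGT) in the 250 bases before each gene's start (RefSeq, GRCm38.p6). It occurred in 16.6% of 32851 promoters, in 26.3% of the 7499 tested genes with a promoter, in 10 of 20 glycolysis genes (50%) and in 9 of 11 hypoxia genes (81.8%). The shares were 32.1% for DNA replication and E2F targets, 20.6% for ribosome biogenesis and 18.2% for cell cycle inhibitors. A list of hypoxia response genes may hold the core by its making, so its share says nothing about these cells. A match is a run of letters and not a measured binding site. Capitals mark the matches, each sequence is written 5′ to 3′ on the gene's own strand, and in Bnip3 the matches on both strands overlap in CACGTG.
Slc16a3, chr11:120948817-120949066, plus strand: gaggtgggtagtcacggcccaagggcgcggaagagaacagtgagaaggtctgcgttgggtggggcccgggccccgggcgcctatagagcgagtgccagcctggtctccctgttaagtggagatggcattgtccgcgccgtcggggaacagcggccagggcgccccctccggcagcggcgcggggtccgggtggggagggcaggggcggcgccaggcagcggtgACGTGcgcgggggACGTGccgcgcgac
Bnip3, chr7:138909507-138909756, minus strand: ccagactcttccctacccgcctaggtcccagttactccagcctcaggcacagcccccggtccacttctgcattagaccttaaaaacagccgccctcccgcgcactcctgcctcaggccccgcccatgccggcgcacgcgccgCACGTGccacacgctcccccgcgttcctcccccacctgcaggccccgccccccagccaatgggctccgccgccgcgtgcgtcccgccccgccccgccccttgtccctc
Ankrd37, chr8:45999851-46000100, minus strand: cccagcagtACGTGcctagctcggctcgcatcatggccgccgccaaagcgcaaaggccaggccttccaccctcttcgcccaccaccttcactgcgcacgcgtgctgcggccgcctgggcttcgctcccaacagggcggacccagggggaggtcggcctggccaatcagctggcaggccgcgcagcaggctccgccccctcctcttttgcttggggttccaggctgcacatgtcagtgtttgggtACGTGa
Slc16a3 holds its 2 matches next to the start, Ankrd37 has 1 beside the start and 1 near the far end, and Bnip3 has its overlapping pair near the middle.

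Genes of the stress response and of cell death followed. Of 14 measured ATF4 and CHOP targets 11 had a positive change (median 0.08, and 0.12 without null replicate 1), 0 passed in limma and 2 had an unadjusted p below 0.05. Nupr1, a stress-induced chromatin protein, read 1.89, 1.17, 2.81 and 2.81 FPKM in wild-type libraries, against 4.04, 2.71, 8.02 and 5.22 FPKM in null replicates 0 to 3 (log2 change 0.88 ± 0.25, limma adjusted p = 0.442). Only null replicate 1 overlapped the wild-type range. Ddit3, which encodes CHOP, read 6.18 to 9.12 and 7.29 to 12.6 FPKM. Of 13 measured BCL2 family genes 9 had a positive change (median 0.03, and 0.01 without null replicate 3), with the survival gene Bcl2 at 6.07 to 12.5 and 9.13 to 18.98 FPKM and the killer gene Bax at 65.5 to 83.2 and 53.7 to 73.2 FPKM. The 18 p53 targets had a median of -0.01, with 0 that passed in limma and 2 with an unadjusted p below 0.05. With the replicate number as a block in the 8 libraries alone, Nupr1 (limma adjusted p = 0.0102), Chac1 (0.0181), Ddit4 (0.0451) and Bcl2 (0.0173) passed. They were among 76 of the 10002 genes tested that passed in that fit.

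MHC class I and cholesterol synthesis lists had few negative members and 0 changed genes. Of 20 measured MHC class I genes 18 had a positive change (median 0.12, and 0.45 without BCR-ABL1), 0 passed in limma, 2 had an unadjusted p below 0.05, and the family's near-identical members make single levels uncertain. The median was 0.04 without null replicate 3 and 0.20 without null replicate 0. H2-T10 read 7.196 to 8.8 and 8.41 to 9.46 FPKM, against 4.29 to 5.07 and 7.53 to 7.92 FPKM without BCR-ABL1. The difference between backgrounds for H2-T10 was -0.42 ± 0.09 and did not pass (limma adjusted p = 0.611). Of 22 cholesterol synthesis genes 21 had a positive change (median 0.14), with 0 that passed in limma or had an unadjusted p below 0.05. Leaving out wild-type replicate 0 gave a median of 0.04, and leaving out replicate 1 gave 0.26. The sterol-regulated gene Insig1 read 36.7 to 47.0 and 44.8 to 51.8 FPKM, and Mvk, the mevalonate kinase gene, 4.69 to 7.52 and 6.31 to 10.5 FPKM. Mvk (chr5:114444269-114460591) lies within the span of the changed genes on chromosome 5, and the part of that position was not tested.

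**Figure D5:**
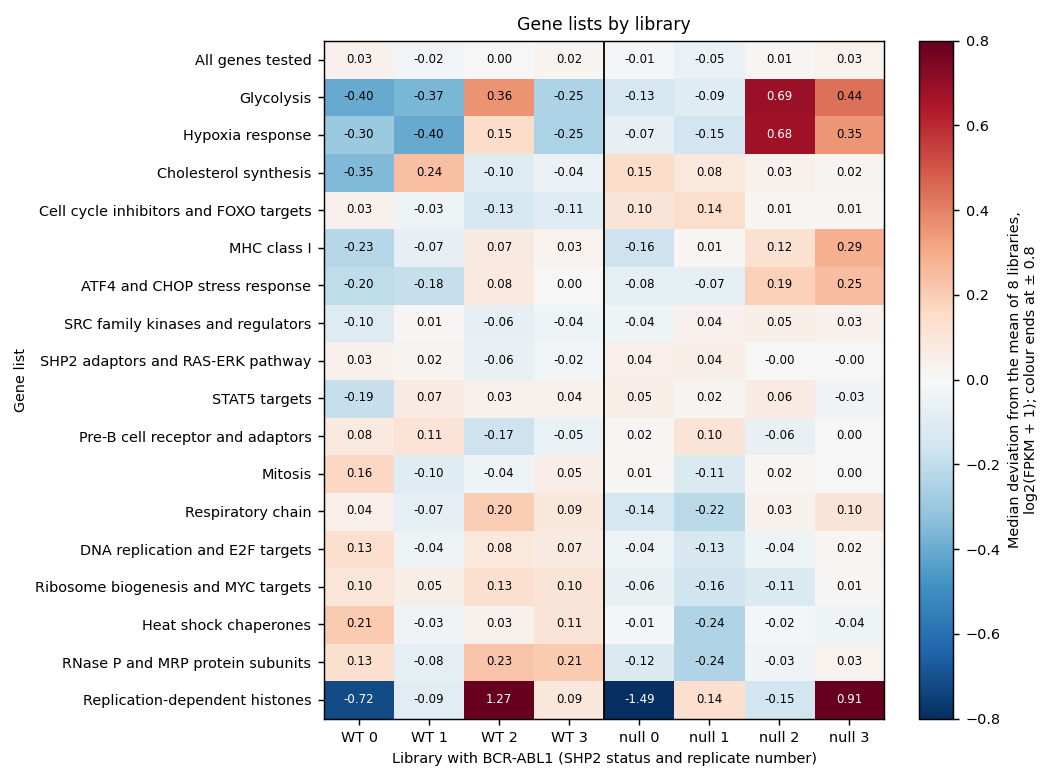
Median deviation of the members of 17 gene lists, and of all genes, from their mean over the 8 libraries with BCR-ABL1 (log2(FPKM + 1), colour and printed value, colour ending at ± 0.8); columns are wild-type and null replicates 0 to 3. Glycolysis ranges from -0.40 in wild-type replicate 0 to 0.69 in null replicate 2, and ribosome biogenesis is at or above 0.05 in every wild-type library and at most 0.01 in the null libraries.

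Seen by library, few lists separated the groups. Ribosome biogenesis medians were 0.05 to 0.13 in wild-type and -0.16 to 0.01 in null libraries, and cell cycle inhibitors -0.13 to 0.03 and 0.01 to 0.14. The first did not overlap and the second did by little. Glycolysis, MHC class I, cholesterol synthesis and the chaperones overlapped, with 1 or 2 libraries at the ends of each range. Between same-numbered libraries the glycolysis, hypoxia and MHC class I medians were higher in null in 4 of 4 pairs, and the chaperone median was lower in 4 of 4. The cell cycle inhibitor, ATF4 and CHOP, interferon response and SRC family medians were likewise higher in 4 of 4. So were lists with a small median change, such as SHP2 adaptors and RAS-ERK, interleukin 7 receptor, JAK and STAT, and B-lineage transcription factors. Ribosome biogenesis, DNA replication, RNase P and MRP and small heat shock medians were lower in 4 of 4. Plasma cell and myeloid marker medians were lower in 4 of 4 too. A shared direction in 4 pairs therefore does not set a list apart. Replicates 2 and 3 correlated better crossed than by number, so this pairing is uncertain.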

How the data were processed

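Gene-level FPKM values for mouse pre-B cells were used as deposited by the authors. Per the labels' protocols, 150 ng of RNA went into stranded polyA libraries, sequenced as paired ends of 100 cycles, in sets that held 1 library of each group. Per the submitters' processing notes, Bowtie and Cufflinks were used with mm10 (GRCm38), with no versions given. All 16 per-library files equalled the series table. Entries of a repeated symbol were summed (254 symbols, 40 of the genes tested). Genes at 1 FPKM or more in at least 4 of the 8 libraries with BCR-ABL1 were tested (10002). Tests used limma 3.58.1 in R 4.3.3 on log2(FPKM + 1), with 4 group means over 16 libraries, a trended spread and Benjamini-Hochberg adjustment over all genes tested. Ptpn11 was also tested by exact permutation. Low values gave relative depth only, so no count intervals are given. The fit was tested on simulated data.

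The members and gene lists were chosen with earlier results of these data known. Counts of list members with BCR-ABL1 stand against 42.6% of all genes tested with a positive change and 3.67% at an unadjusted p below 0.05. Named genes were Ptpn11, Abl1, Bcr, the changed genes, some of those added by the replicate block whose groups do not overlap, and, from each list, at most 4 genes ranked by p; predicted and RIKEN genes were counted without naming, save those said to be chosen after their values were seen. Marker genes and genes under the 1 FPKM rule were also chosen that way. Replicate numbers come from the labels. Deviations of same-numbered wild-type and null libraries correlated at 0.651, 0.788, 0.336 and 0.213, so the number was also entered as a block. Null replicate 2 correlated better with wild-type replicate 3 (0.490) and null replicate 3 with wild-type replicate 2 (0.827). Alternatives were the pseudocount, the filter, the scaling, the libraries fitted, library weights and leaving out each library.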

Additional observations from a re-analysis of the deposited data

Results flagged for a closer look

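Of 228 gene and group pairs over 114 named genes, 10 (4.39%) held 1 library far from its 3 fellows, judged by its gap to the nearest divided by the range of the group (above Dixon's limit at 95% for 4 libraries). Chance alone would single out about 1 group in 20.

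Among wild-type libraries, replicate 2 stood high for 3 genes. These were Slc16a3 (6.59 FPKM against 0.317 to 0.418, gap over range 0.984), Slc2a1 (10.8 against 4.996 to 5.93 FPKM, 0.838) and Zfp213 (5.97 against 4.31 to 4.46 FPKM, 0.907). Replicate 0 stood low for Dusp5 (9.67 FPKM, 0.877) and Ksr1 (1.43 FPKM, 0.907), and replicate 3 stood low for Mxi1 (2.49 FPKM, 0.850).

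Among null libraries, replicate 3 stood high for Uchl1 (17.2 against 3.16 to 4.50 FPKM, gap over range 0.905) and for the chromatin assembly gene Chaf1b (26.1 FPKM, 0.939). Replicate 0 stood high for the peroxisomal membrane gene Pxmp2 (1.60 FPKM, 0.949, a gene with overlapping groups chosen after its values were seen) and for Utp20, a ribosome biogenesis factor (19.7 FPKM, 0.831).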

How the results depend on the processing

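Of the 19 changed genes with an established symbol, 10 kept their call under each alternative that tested them and 0 reversed. Of those 10, Hspb8, Ift81, Mid1, Zfp213 and Zfp605 were tested in 17 of the 18, since they have a mean under 5 FPKM. The 9 others are given in the report with the libraries and fits that ended their call. The 28 changed genes became 11 with a mean of at least 5 FPKM, 45 with the replicate block, 76 with the block in the 8 libraries alone, and 18 (without wild-type replicate 2) to 28 (without null replicate 2 of the cells without BCR-ABL1) when 1 library was left out. The difference between backgrounds passed for 3 genes with no filter, 1 with array weights and 0 to 1 with 1 library left out, against 0. Among the 114 genes refitted, leaving out 1 library turned the sign of 3 uncalled ones: Abl1 ranged from -0.14 to 0.042, Dusp5 from -0.22 to 0.090 and Myc from -0.29 to 0.015. The cause was not tested. In all 16 libraries the block changed no other call than the 17 it added. FPKM carries no counts, so precision at low levels is unknown, and genes under 1 FPKM were tested in the fit with no filter alone.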
